A study of Mus musculus with 8 samples.

Results

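The genes described here are 10 transcripts that mark neutrophils: both chains of calprotectin (S100a8, S100a9), proteins stored in neutrophil granules (Mpo, Elane, Ngp, Camp, Ltf), a growth factor receptor and a surface antigen (Csf3r, Ly6g), and the secreted protein Retnlg. They are 10 of 52030 gene symbols in the deposited table and were taken by symbol whatever their level. The set was chosen by its known role and with the difference between the groups already seen, since neutrophil genes lay lower after conditioned vesicles in an earlier look at these libraries. Their differences between groups are therefore given as a description, with no test.

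The samples were 8 liver libraries of wild-type (WT) mice. All mice were fed CDAHFD, a high-fat diet with defined amino acids and little choline, which causes steatohepatitis, a fatty liver with inflammation. The 4 libraries of group RIC_hEV came from mice injected into a vein with extracellular vesicles from the blood of human volunteers after remote limb ischemic conditioning, in which a limb's blood supply is stopped briefly and let back. The 4 libraries of group ctr_hEV came from mice given vesicles of volunteers after a sham procedure. Both groups thus share the diet and an injection of human vesicles, and no mice without them were analysed here. Age, dose, time and whether each library is its own mouse are not stated, so p-values measure only the spread between these libraries, which may be technical.

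Neutrophils are short-lived white blood cells that are made in the bone marrow and enter injured tissue from the blood. Their granule proteins are made in stages: myeloperoxidase and elastase of the azurophil granules early in the marrow, then lactoferrin, cathelicidin and Ngp of the specific granules, while mature cells mainly keep transcripts such as those of calprotectin. Calprotectin is a calcium-binding, metal-withholding protein of the cytosol that also signals through Toll-like receptor 4, and neutrophils in the liver are a known feature of steatohepatitis.

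Levels are in FPKM, a fragment count scaled to transcript length and library size, so genes can be compared per length as far as the authors' unstated gene lengths hold. Totals lay between 389616 and 430326 FPKM, and depth, estimated from the smallest steps of low genes, between about 19700000 and 29200000 fragments per library. The hepatocyte marker Alb (albumin) lay between 16909 and 28051 FPKM, as the tissue label implies. Libraries ctr_hEV 1 and ctr_hEV 3 stood apart in other cells' markers: the summed FPKM of 6 cholangiocyte (bile duct) genes, of which Spp1 is also a macrophage gene, was 149 and 110 there against 20.3 to 39.2 in the other 6 libraries. In a piece of tissue, fewer neutrophils and less RNA per neutrophil cannot be told apart.

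The sequences before the starts of S100a8, S100a9, Ngp and Ltf are shown as examples of both calprotectin chains and of a pair of specific granule genes. S100a8 (chromosome 3, 90668978 to 90670035, plus strand) and S100a9 (chromosome 3, 90692632 to 90695721, minus strand) lie side by side and are read in opposite directions. Camp (chromosome 9, 109847379 to 109849617, minus strand), Ngp (chromosome 9, 110419747 to 110423012, plus strand) and Ltf (chromosome 9, 111019271 to 111042767, plus strand) lie within 1195.4 kb. All 5 are annotated as protein-coding (GENCODE on mm10). The sequences are RefSeq's (GRCm38.p6, the same assembly as mm10), 5′ to 3′ on the gene's strand, and end before the first annotated base of the transcript. Capitals mark TTNCNNAA, a core recognised by C/EBP factors, and GAGGAA, a core recognised by PU.1, both searched on both strands (reverse forms TTNNGNAA and TTCCTC).
S100a8, chr3:90668821-90668977: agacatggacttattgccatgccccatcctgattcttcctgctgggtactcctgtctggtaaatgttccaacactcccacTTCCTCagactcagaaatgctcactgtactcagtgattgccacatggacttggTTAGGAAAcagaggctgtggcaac
S100a9, chr3:90695722-90695971: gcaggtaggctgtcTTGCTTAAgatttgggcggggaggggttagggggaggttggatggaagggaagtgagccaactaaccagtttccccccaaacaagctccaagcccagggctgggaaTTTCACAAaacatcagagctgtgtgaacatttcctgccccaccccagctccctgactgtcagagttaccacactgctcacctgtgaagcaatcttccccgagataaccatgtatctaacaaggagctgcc
Ngp, chr9:110419558-110419746: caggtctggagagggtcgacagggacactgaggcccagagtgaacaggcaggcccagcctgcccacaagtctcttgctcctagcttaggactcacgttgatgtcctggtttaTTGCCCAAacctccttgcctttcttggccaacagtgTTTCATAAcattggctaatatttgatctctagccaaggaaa
Ltf, chr9:111019042-111019270: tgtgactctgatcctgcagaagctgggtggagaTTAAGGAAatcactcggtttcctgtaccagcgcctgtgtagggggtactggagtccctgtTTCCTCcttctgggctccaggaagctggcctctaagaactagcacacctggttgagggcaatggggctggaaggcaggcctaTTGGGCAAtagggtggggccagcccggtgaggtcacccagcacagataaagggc

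C/EBP factors and PU.1 are well known regulators of granule genes. In the 250 bases before the RefSeq start, the C/EBP core was present in 6 of the 10 neutrophil genes and in 36.8% of 32536 promoter windows of that length. The PU.1 core was present in 6 of 10 and in 23.4% of all windows. S100a9 held 2 C/EBP cores, 236 and 130 bases before the start, and no PU.1 core. S100a8 held 1 C/EBP core at 117 and PU.1 cores at 170 and 36 bases, the last of them outside the stretch shown. Ngp held 3 C/EBP cores (138, 102 and 11 bases, the last outside the stretch shown), Ltf 2 (217 and 75 bases) and a PU.1 core at 157, and Camp neither core. A match is a description of letters and no measure of binding.

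The 10 transcripts spanned a wide range of levels. By their mean over the 8 libraries the order was S100a9 (11.5 FPKM), S100a8 (7.71), Csf3r (3.34), Retnlg (2.03), Ngp (1.36), Camp (0.488), Ltf (0.354), Elane (0.0865), Ly6g (0.0428) and Mpo (0.0302). S100a9 exceeded S100a8 in 7 of 8 libraries, and Csf3r exceeded Retnlg in 7. The order from Camp to Ltf held in 5 of 8 libraries and that from Ly6g to Mpo in 2, so these neighbours did not differ beyond their spread. Only 5 of the 10, S100a8, S100a9, Csf3r, Retnlg and Ngp, reached the mean of 1 FPKM needed for the fit across genes, and the other 5 are given as values.

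**Figure D1:**
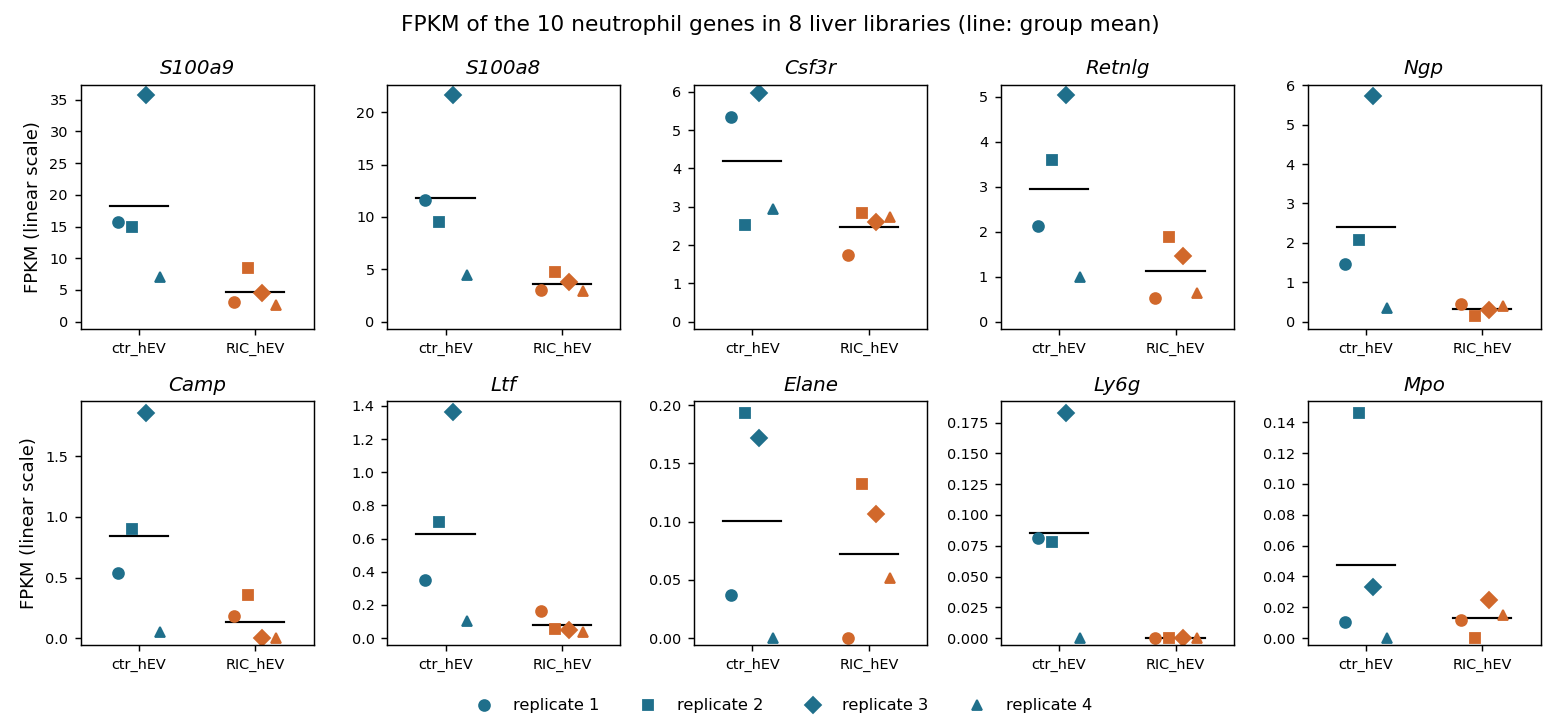
FPKM of each of the 10 neutrophil genes (vertical axes, linear, starting just below 0) in the ctr_hEV and RIC_hEV libraries, with a marker shape per replicate number and a line at the group mean. In 8 genes the highest library is ctr_hEV 3 and in Elane and Mpo it is ctr_hEV 2, while ctr_hEV 4 lies within the RIC_hEV range in all but Csf3r.

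Calprotectin transcripts were the most abundant of the set and lay lower in RIC_hEV on average. In ctr_hEV 1 to 4, S100a8, the lighter chain, was at 11.6, 9.49, 21.7 and 4.46 FPKM. It was at 3.06, 4.69, 3.75 and 2.94 in RIC_hEV 1 to 4. The groups overlapped only through ctr_hEV 4, which lay below RIC_hEV 2. The means were 11.8 ± 7.22 and 3.61 ± 0.803 FPKM (SD, n = 4 per group), a ratio of 3.27.

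S100a9, the heavier chain, was at 15.6, 15.0, 35.7 and 6.97 FPKM in ctr_hEV and at 3.13, 8.50, 4.51 and 2.62 in RIC_hEV. As for its partner, ctr_hEV 3 was far above the rest, and ctr_hEV 4 lay under RIC_hEV 2. The ratio of the group means was 3.90. On the log2(FPKM + 1) scale the difference was -1.66 for S100a9 and -1.31 for S100a8, or -1.55 and -1.199 relative to the median tested gene, which itself lay at -0.11.

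The chains did not keep a fixed proportion in every library. S100a9 divided by S100a8 was 1.35, 1.58, 1.65 and 1.56 in ctr_hEV and 1.02, 1.81, 1.201 and 0.891 in RIC_hEV. The ratio varied less among the ctr_hEV libraries (1.53 ± 0.128) than among the RIC_hEV libraries (1.23 ± 0.408), and the ranges overlapped. Both chains rested on an estimated 26.8 or more fragments in every library, and these ratios are less exact where levels are low.

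Transcripts of the specific granules had the widest ratios of group means among the 9 genes with a ratio. Ngp, a cathelicidin-related granule protein, was at 1.45, 2.07, 5.73 and 0.345 FPKM in ctr_hEV and at 0.457, 0.150, 0.292 and 0.407 in RIC_hEV. Its 3 higher ctr_hEV libraries lay above every RIC_hEV library, and ctr_hEV 4 lay inside the RIC_hEV range. The group means were 2.40 ± 2.33 and 0.326 ± 0.137 FPKM, a ratio of 7.35. In RIC_hEV, Ngp rested on only an estimated 3.79 to 14.5 fragments per library.

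Camp, which encodes the antimicrobial peptide cathelicidin, was at 0.541, 0.904, 1.86 and 0.0537 FPKM in ctr_hEV. In RIC_hEV 1 and 2 it was at 0.181 and 0.360, and the table lists it at 0 in RIC_hEV 3 and 4. Ltf, the iron-binding lactoferrin, was at 0.350, 0.703, 1.36 and 0.103 FPKM in ctr_hEV and at 0.164, 0.0578, 0.0506 and 0.0395 in RIC_hEV. Again only ctr_hEV 4 reached down into the RIC_hEV range. The ratio of group means was 6.21 for Camp and 8.08 for Ltf, with ctr_hEV SDs (0.764 and 0.546) close to the ctr_hEV means (0.840 and 0.629). Estimated fragments per library were between 2.14 and 90.6 for Ltf and at most 34.2 for Camp.

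The 3 specific granule genes lie along the same stretch of chromosome 9, among genes of other kinds. Of 28 other protein-coding genes between Camp and Ltf, 13 were tested. In limma, none passed the adjusted threshold of 0.05 and 2 had an unadjusted p under 0.05. Their log2 differences ran from -0.39 (Cdc25a, a cell cycle phosphatase) to 0.28 (Rtp3), with a median of -0.14. Around S100a8 and S100a9, with 100 kb on each side, 2 of 9 other protein-coding genes were tested and both were lower, S100a4 at -0.55 and S100a6 at -0.36. Neither passed in limma, and 1 had an unadjusted p under 0.05. On chromosome 9 the differences were -1.12 for Ngp, -0.62 for Camp and -0.54 for Ltf.

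Azurophil granule transcripts were close to 0 in every library. Mpo, myeloperoxidase, had 0.0106, 0.146 and 0.0333 FPKM in the first 3 ctr_hEV libraries and 0.0115, 0.0249 and 0.0151 in RIC_hEV 1, 3 and 4. It is listed at 0 in ctr_hEV 4 and RIC_hEV 2. Elane, neutrophil elastase, had 0.0368, 0.193 and 0.172 FPKM in the first 3 ctr_hEV libraries and 0.132, 0.106 and 0.0514 in RIC_hEV 2, 3 and 4. It is listed at 0 in ctr_hEV 4 and RIC_hEV 1. The groups overlapped widely in both genes. At most an estimated 11.7 fragments stood behind a value of Mpo and 5.55 behind one of Elane, so differences between groups were not detectable at this depth. Exons of Mpo overlap Gm11505 on the opposite strand and share 12.1% of their 31-base stretches with other genes, so its low values are uncertain.

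Csf3r, the receptor for granulocyte colony-stimulating factor, had the smallest ratio of the 5 tested genes. It was at 5.33, 2.54, 5.97 and 2.94 FPKM in ctr_hEV and at 1.74, 2.85, 2.59 and 2.74 in RIC_hEV. Here ctr_hEV 1 and ctr_hEV 3 lay above all others, while ctr_hEV 2, high in the granule genes, lay within the RIC_hEV range. The ratio of group means was 1.69. Of its 31-base stretches 23.1% also occur in other annotated transcripts.

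Ly6g, the surface antigen used to sort mouse neutrophils, had 0.0815, 0.0782 and 0.183 FPKM in the first 3 ctr_hEV libraries. It is listed at 0 in ctr_hEV 4 and in all 4 RIC_hEV libraries. The values above 0 rest on an estimated 2.15 to 4.18 fragments each, and 9.55% of its 31-base stretches are shared, among others with Ly6i, Ly6c2 and Ly6a. No ratio is given against libraries listed at 0. Retnlg, a resistin-like protein secreted by mature neutrophils, was at 2.13, 3.59, 5.03 and 1.0004 FPKM in ctr_hEV and at 0.530, 1.87, 1.46 and 0.643 in RIC_hEV. Its ratio of group means was 2.61, and ctr_hEV 4 again lay inside the RIC_hEV range.

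The proportions between the gene groups also varied by library. Summed S100a8 and S100a9 divided by Csf3r was 5.10, 9.65, 9.61 and 3.89 in ctr_hEV and 3.56, 4.63, 3.19 and 2.03 in RIC_hEV. Here ctr_hEV 2 and ctr_hEV 3 stood highest and ctr_hEV 4 lay inside the RIC_hEV range. The summed specific granule genes were 2.34, 3.68, 8.95 and 0.502 FPKM in ctr_hEV and 0.802, 0.568, 0.342 and 0.447 in RIC_hEV, so that ctr_hEV 2 exceeded ctr_hEV 1 in granule transcripts while its calprotectin sum was lower.

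Across the 10 genes, the highest library was always a ctr_hEV library, ctr_hEV 3 in 8 genes and ctr_hEV 2 in Mpo and Elane. The mean log2 difference was below 0 in 10 of 10 (7 of 10 with per-library median centring, where Mpo, Elane and Ly6g turned), with a median of -0.58. As background, 73.0% of the 11268 tested genes and 66.4% of the 28904 genes above 0 in any library were also lower, with a median tested gene at -0.11. With per-library median centring 43.7% of the tested genes were lower, and with quantile normalization 51.5%. Since these genes were chosen on this contrast, nothing is read from their count. The groups overlapped in all 10 genes, against 4.56% of tested genes and 3.39% of genes above 0 that did not overlap and were lower in RIC_hEV. The library ctr_hEV 4 lay within the RIC_hEV range in 9 of 10 genes. In Csf3r it lay just above that range, and the overlap came from ctr_hEV 2. In Mpo and Elane ctr_hEV 1 lay within the range too. Without ctr_hEV 4, S100a8, S100a9, Ngp, Camp, Ltf, Ly6g and Retnlg, 7 of 10, no longer overlapped. Leaving out the lowest control library had to raise such counts for many genes, and the background then was 21.7% of tested genes and 12.7% of genes above 0. Without RIC_hEV 2, the highest RIC_hEV library in both, S100a8 and S100a9 no longer overlapped, 2 of 10, with a background of 6.72% of tested genes. It was 1 of 10 without ctr_hEV 2 (background 6.22%) and 1 of 10 without RIC_hEV 1 (5.47%).

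**Figure D2:**
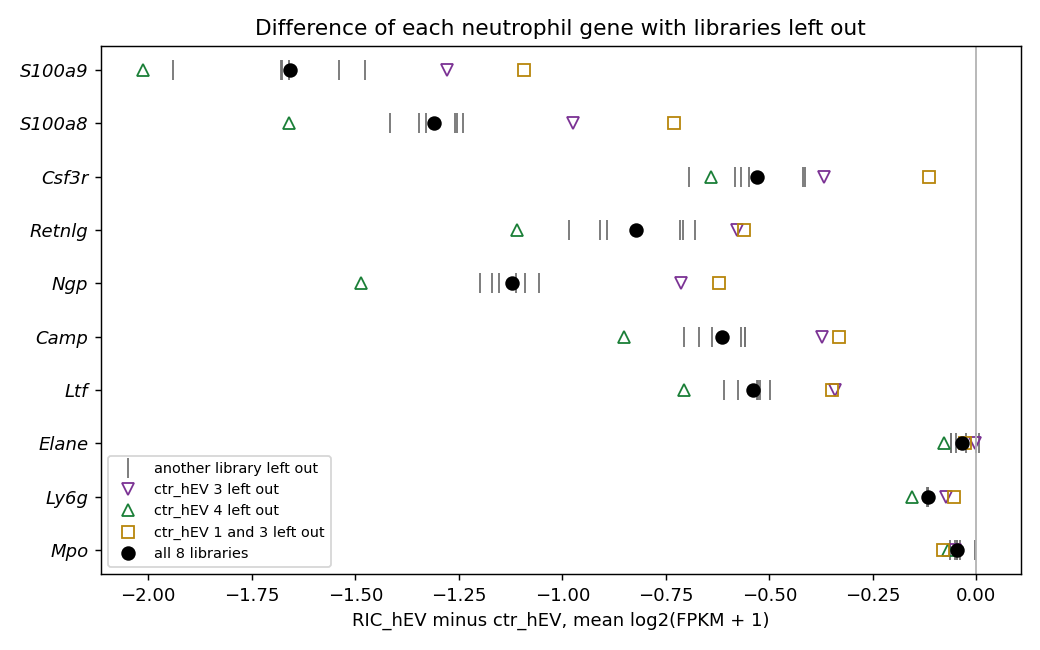
Difference RIC_hEV minus ctr_hEV in mean log2(FPKM + 1) (horizontal axis) of each neutrophil gene with all 8 libraries (filled black circles) and with libraries left out (open symbols and ticks). For S100a9 the difference of -1.66 runs from -2.01 without ctr_hEV 4 to -1.28 without ctr_hEV 3, and is -1.09 without ctr_hEV 1 and ctr_hEV 3, while Elane, Ly6g and Mpo stay close to 0.

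Single control libraries set the size of the differences. Leaving out ctr_hEV 3, the highest library in 8 genes, moved S100a8 from -1.31 to -0.98, Ngp from -1.12 to -0.71 and Camp from -0.62 to -0.37. Leaving out ctr_hEV 4 moved S100a8 to -1.66, Ngp to -1.49 and Camp to -0.85. Csf3r depended most on ctr_hEV 1 and ctr_hEV 3: without both, its -0.53 became -0.11, and S100a8 became -0.73. Low genes depended on the pseudocount too: with 0.1 in place of 1 the difference was -2.08 for Ngp, -1.81 for Camp, -1.73 for Ltf, -1.25 for Retnlg, -0.80 for Ly6g, -0.29 for Mpo and -0.15 for Elane. With a pseudocount of 1, the differences relative to the median tested gene were -1.01 for Ngp, -0.71 for Retnlg and -0.42 for Csf3r. The direction stayed the same in S100a8, S100a9, Ngp, Camp, Ltf, Csf3r and Retnlg with each single library left out.

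The summed erythroid, macrophage and cholangiocyte markers were highest in ctr_hEV 1 and ctr_hEV 3. Single genes did not all follow their sum. Of 8 erythroid genes 2 had a higher mean in RIC_hEV, among them Alas2 (7.79 ± 0.623 FPKM in ctr_hEV, 10.3 ± 1.32 in RIC_hEV). Of 14 macrophage genes 3 had a higher mean in RIC_hEV: Clec4f, Timd4 and Marco, each highest in RIC_hEV 4. Summed S100a8 and S100a9 were 27.2, 24.5, 57.3 and 11.4 FPKM in ctr_hEV 1 to 4 and 5.57 to 13.2 in RIC_hEV. The 8 erythroid genes in the table, led by haemoglobin chains of red blood cells, summed to 607, 84.4, 353 and 185 FPKM in ctr_hEV and 153 to 165 in RIC_hEV. The lowest red cell sum of all libraries was that of ctr_hEV 2. Its calprotectin sum lay above every RIC_hEV library, as did those of ctr_hEV 1 and ctr_hEV 3. The 14 macrophage genes summed to 1450, 869, 1200 and 774 FPKM in ctr_hEV and 759 to 988 in RIC_hEV, with ctr_hEV 2 within the RIC_hEV range. The part of other cells in the differences of the neutrophil genes was not tested.

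**Figure D3:**
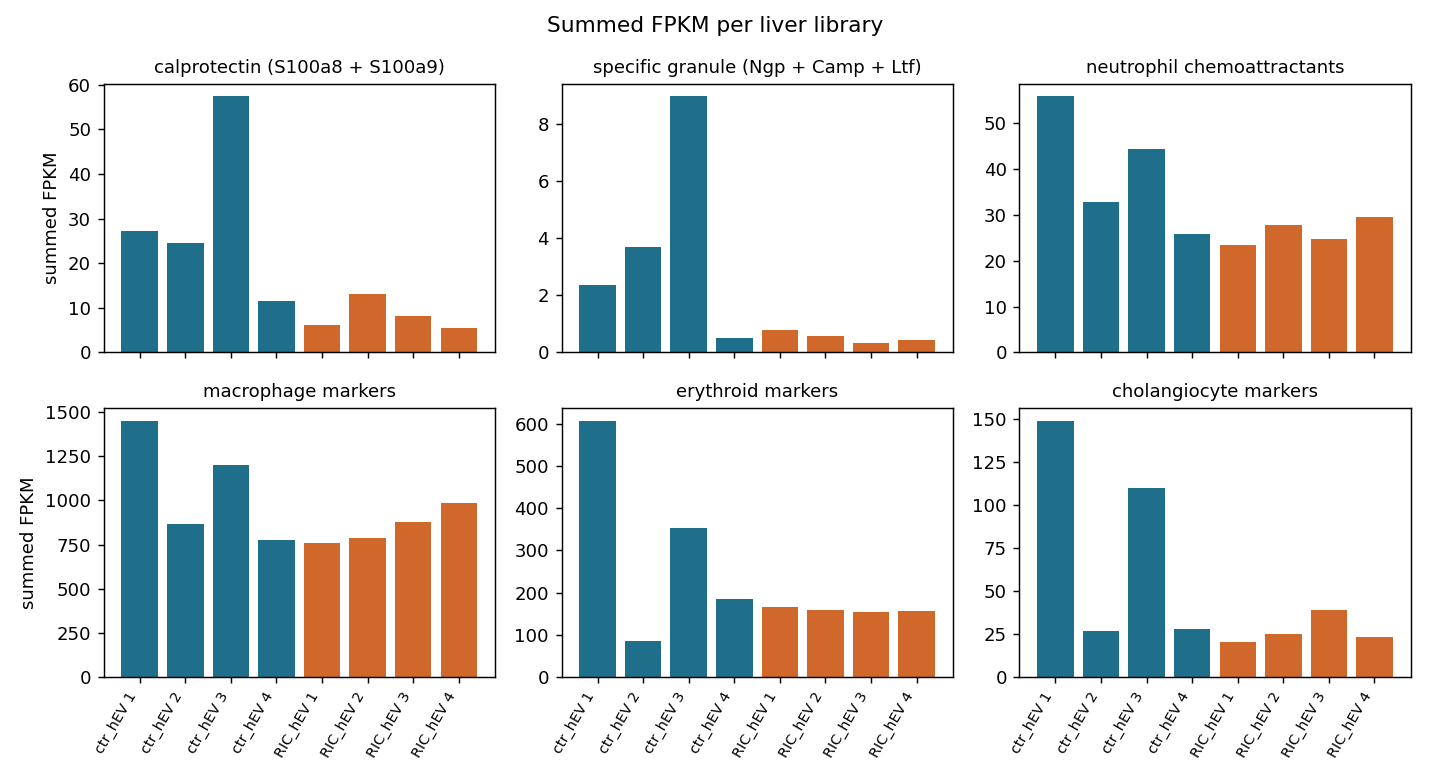
Summed FPKM (vertical axes, linear from 0) of calprotectin, specific granule genes and 4 lists of other genes in each of the 8 libraries, with ctr_hEV in blue and RIC_hEV in orange. Calprotectin in ctr_hEV 2 (24.5) lies above every RIC_hEV library. Erythroid markers are highest in ctr_hEV 1 (607) and ctr_hEV 3 (353) and lowest in ctr_hEV 2 (84.4).

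The remaining marker lists are given by their range of sums in ctr_hEV and then RIC_hEV. The 10 monocyte genes, some of which neutrophils also express, summed to 35.4, 26.4, 34.6 and 35.1 FPKM in ctr_hEV and 26.4 to 28.7 in RIC_hEV, so that ctr_hEV 2 was the lowest control. The 8 platelet genes summed to 4.31 to 10.9 and 4.04 to 6.60 FPKM. The 9 genes of blood progenitors summed to 11.2 to 15.7 and 9.71 to 13.2, with Prss57 and Igll1 listed at 0 in every library. The 8 T and NK cell genes summed to 6.46 to 11.4 and 7.93 to 11.9, with ctr_hEV 2 the highest and ctr_hEV 3 the lowest control. The 8 genes of eosinophils, basophils and mast cells summed to at most 1.81, with Cpa3 and Fcer1a listed at 0 throughout. The 7 B and plasma cell genes, led by the antibody chain Igkc, summed to 13.8 to 25.6 and 42.4 to 54.0 FPKM, without overlap. The 9 stellate and sinusoidal endothelial genes summed to 160 to 233 and 154 to 196, and the 8 hepatocyte genes, led by Alb, to 27000 to 42400 and 34000 to 39900. All 8 hepatocyte genes had a higher mean log2 in RIC_hEV, while 73.0% of all tested genes were lower. In limma 5 of the 8 had an unadjusted p under 0.05, against 14.0% of all tested genes. Among them, Cyp2e1 was at 1182, 3129, 1329 and 3490 FPKM in ctr_hEV and 3266 to 3952 in RIC_hEV. Of the 55 tested genes in these cell type lists, limma called 0 at an adjusted p under 0.05 and 10 at an unadjusted p under 0.05, 2 of them lower. Igkc passed without ctr_hEV 1, and Igkc and Tat, a hepatocyte aminotransferase, passed without ctr_hEV 4.

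The other genes of the neutrophil programme were tested in the fit across all genes, by 9 lists that leave out the 10 genes above. Higher and lower in these lists refer to the mean of log2(FPKM + 1). Of 108 genes, 56 were tested, and 43 of them (76.8%) were lower in RIC_hEV, near the 73.0% of all tested genes. These counts depend on scaling: 31 of the 56 were lower with per-library median centring, against 43.7% of all tested genes, and 38 with quantile normalization, against 51.5%. No gene passed at an adjusted p under 0.05 in limma (lowest 0.214), where 4 of all 11268 tested genes passed (0.0355%). Of the 56, 13 had an unadjusted p under 0.05, 12 of them lower. Over all tested genes 14.0% had an unadjusted p under 0.05. Without ctr_hEV 4, Cd14, Chil3, Cxcl1 and Lcn2 passed in limma, 4 list genes among 175 that passed in all.

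Among other granule genes, the group means were mostly lower in RIC_hEV. Over all genes above 0 in any library, 66.4% were lower. Of 13 other genes of specific and gelatinase granules, 13 had a lower mean in RIC_hEV, 5 were tested and none passed. All 5 tested were lower, 4 with per-library median centring. Lcn2, the iron-scavenging lipocalin that hepatocytes also make, was at 246 ± 74.0 and 117 ± 8.72 FPKM (limma adjusted p = 0.214), and its groups did not overlap. Chil3, a chitinase-like protein also made by macrophages, was at 7.09 ± 2.35 and 2.85 ± 0.671 (limma adjusted p = 0.331), again without overlap. Hp, haptoglobin, a liver secretory protein as well as a granule protein, was at 3274 ± 299.6 and 3267 ± 464 (limma adjusted p = 0.973). Of 7 other azurophil genes above 0, all had a lower mean, and of the 3 tested 2 were lower with per-library median centring. Lyz2, lysozyme of phagocytes, was at 449.7 ± 158 and 316 ± 81.9 (limma adjusted p = 0.392), and Prss57 and Bpi were listed at 0 throughout.

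Of 22 other mature neutrophil genes above 0, 18 had a lower mean and 4 a higher one. Of these, 7 were tested and 5 were lower, 3 with per-library median centring. Fpr2, a formyl peptide receptor, was at 2.59 ± 0.307 and 1.72 ± 0.391 FPKM (limma adjusted p = 0.331), while its relative Fpr1 was at 3.87 ± 0.246 and 3.62 ± 0.573 (limma adjusted p = 0.705). Among genes too low to test, 2 are named here after their values were seen. Cxcr2, the main neutrophil chemokine receptor, was at 0.960, 0.456, 1.54 and 0.361 FPKM in ctr_hEV and 0.228 to 0.330 in RIC_hEV. Asprv1, a protease of mature neutrophils, was at 0.742, 0.805, 1.48 and 0.397 in ctr_hEV and 0.164 to 0.478 in RIC_hEV. In both, ctr_hEV 3 was highest and ctr_hEV 4 the lowest control. The most abundant of the list were not lower in mean: Wfdc21 was at 161 ± 79.1 and 169.9 ± 35.9 FPKM (limma adjusted p = 0.755) and Msrb1 at 158 ± 8.07 and 167 ± 19.0 (limma adjusted p = 0.725).

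Genes that recruit neutrophils had a lower mean in 13 of 15 above 0, against 66.4% of all genes above 0. All 7 tested were lower, 6 with per-library median centring or quantile normalization. In limma none passed and 4 had an unadjusted p under 0.05, all lower. Over all tested genes that share was 14.0%, in either direction. Of the 4, Cxcl5 was at 4.63, 0.717, 3.68 and 0.945 FPKM in ctr_hEV and 0.473 ± 0.172 in RIC_hEV. It reached a mean of 1 FPKM only through ctr_hEV 1 and ctr_hEV 3, which ties its direction to the filter. Cxcl1, a main ligand of Cxcr2, was at 10.9, 9.39, 12.1 and 6.24 FPKM in ctr_hEV and at 3.87, 6.31, 5.76 and 5.68 in RIC_hEV (limma adjusted p = 0.331). The order of the ctr_hEV libraries was the one seen for S100a8, with ctr_hEV 3 highest and ctr_hEV 4 lowest. Cxcl2, another ligand of that receptor, was at 1.73 ± 0.221 and 1.01 ± 0.151 FPKM (limma adjusted p = 0.331), and here ctr_hEV 4 lay with the other controls and the groups did not overlap. Il1b, a cytokine that induces these ligands, was at 2.54 ± 0.363 and 1.48 ± 0.290 (limma adjusted p = 0.331). Csf3, the granulocyte growth factor that Csf3r binds, was listed at 0 in 6 of 8 libraries.

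Calprotectin receptors and their signalling genes were 8 tested, 6 of them lower (3 with per-library median centring or quantile normalization), and none passed. Tlr4, a receptor named for its role, was at 1.37 ± 0.729 and 1.24 ± 0.676 FPKM (limma adjusted p = 0.918), Myd88, its adaptor, at 9.66 ± 1.89 and 8.86 ± 0.163 (limma adjusted p = 0.692), and Bsg, a further receptor, at 160.1 ± 10.2 and 179.5 ± 15.6 (limma adjusted p = 0.447). Cd14, the co-receptor of Tlr4, was at 22.8 ± 8.98 and 10.2 ± 0.852 (limma adjusted p = 0.331), without overlap. In the list, 7 of 10 genes had a lower mean.

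The adhesion and oxidase genes, some of which macrophages also express, held no gene that passed. Of 8 tested adhesion genes 6 were lower (5 with per-library median centring), near the 73.0% of all tested genes. Icam1, a ligand of leukocyte integrins, was at 9.12 ± 2.65 and 6.11 ± 0.440 FPKM (limma adjusted p = 0.352). Itgb2, the integrin beta chain, was at 26.3 ± 10.8 and 20.3 ± 2.88 (limma adjusted p = 0.531). All 6 NADPH oxidase genes had a lower mean (5 with per-library median centring or quantile normalization), against 73.0% of all tested genes, and overlapped. Cybb, the catalytic subunit, was at 18.03 ± 4.71 and 13.5 ± 2.76 FPKM (limma adjusted p = 0.375). Of 6 tested elastase inhibitors 5 were higher on the log2 scale (3 with quantile normalization), of which Serpina1e had a lower mean FPKM, and none passed. Serpina1c, an antitrypsin made by hepatocytes, was at 865 ± 138 and 1029 ± 103 (limma adjusted p = 0.385).

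Of 7 tested transcription factors of the neutrophil lineage, 5 were lower (3 with per-library median centring) and none passed. Cebpe and Spi1 are named for their role. Cebpe, which drives specific granule genes, was at 2.40 ± 0.648 and 2.18 ± 0.862 FPKM (limma adjusted p = 0.776). Cebpb, which hepatocytes and macrophages also express, was at 108 ± 17.0 and 143 ± 7.84 (limma adjusted p = 0.331). Spi1, which encodes PU.1, was at 10.96 ± 3.45 and 9.03 ± 1.21 (limma adjusted p = 0.549). In this list 1 lower and 1 higher gene had an unadjusted p under 0.05.

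**Figure D4:**
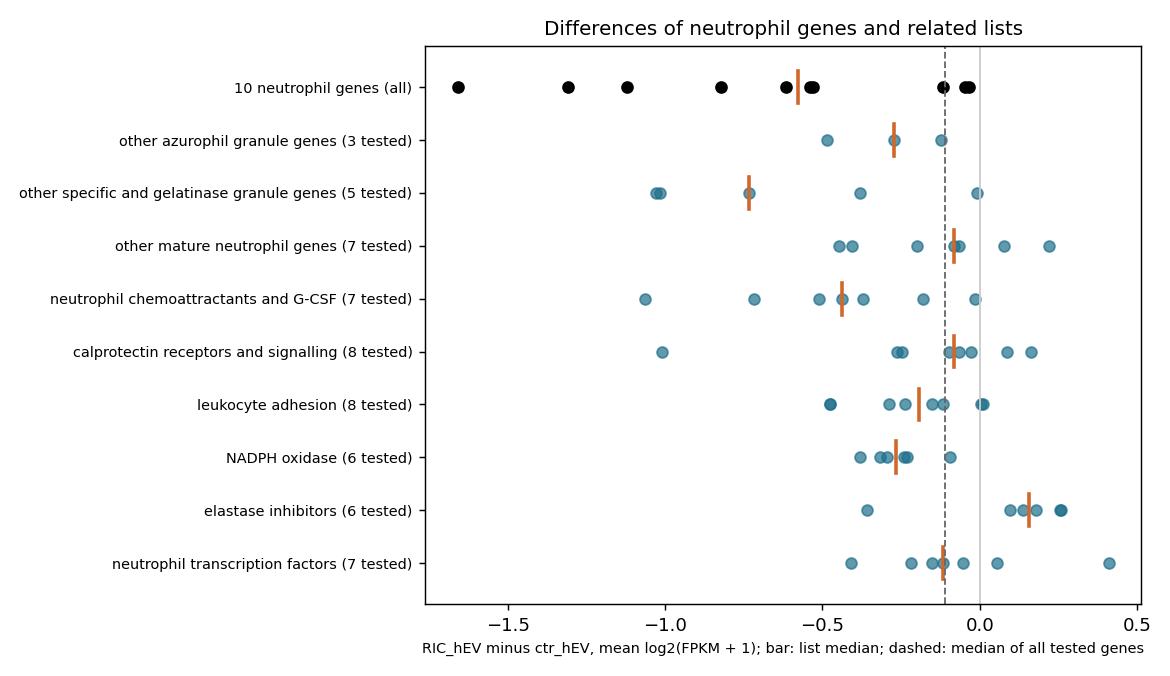
Difference RIC_hEV minus ctr_hEV in mean log2(FPKM + 1) (horizontal axis) of the 10 neutrophil genes and of the tested genes of 9 related lists, each point a gene, with list medians as bars and the median of all tested genes (-0.11) dashed. The neutrophil genes, chosen on this contrast and shown whatever their level, have a median of -0.58. Among the 9 lists, other specific and gelatinase granule genes (-0.73) lie furthest to the left and elastase inhibitors (0.16, or -0.01 with quantile normalization) to the right. The -0.73 is the median of only 5 tested genes of 13, among them Lcn2, Chil3 and Hp, which other cells also make.

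Likeness to the mean profile of the 10 was taken over 10223 named genes with a mean of at least 1 FPKM, which leaves out low genes such as Asprv1 (Pearson r 0.970). Among the candidates the highest Pearson r over the 8 libraries were those of Ccdc181 (0.982), Rab5a (0.972), Ncl (0.968), Zzz3 (0.959), Ddx10 (0.956), Taok1 (0.956), Ankrd17 (0.954), Map3k2 (0.950), Stxbp3 (0.949) and Casp8 (0.949). These r are a description over points that share depth and tissue makeup, and the gene in place 100 still had 0.890. Chil3 (0.917) and Cxcl1 (0.905) of the lists above also lay over that value. The log2 differences of these 10 genes ran from -0.42 (Zzz3) to -0.14 (Rab5a), against -1.31 for S100a8. Ccdc181, the most alike, lay between 2.32 and 3.83 FPKM, a log2 difference of -0.28.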

How the data were processed

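Liver RNA of 8 libraries was sequenced after Trizol extraction, as the labels' protocols state. Tools listed, with no role, by the submitters' processing notes are FastQC 0.11.9, Trimmomatic 0.38, HISAT2 2.2.1, HTSeq 0.13.5, R 3.4.1, DESeq2 1.18.1 and the build mm10. The authors deposited FPKM, 1 column per library. Not given in the sources used here are the program behind them, its annotation and its strand setting.

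Of 55335 rows, 3225 without a gene name (0.176% to 0.207% of FPKM) were left out, and for 80 repeated symbols the row of higher mean was used. Values were taken as log2(FPKM + 1), which understates the change of low genes. Those whose mean FPKM reached 1 were compared with limma 3.58.1 (R 4.3.3, mean-variance trend, two-sided, Benjamini-Hochberg adjustment over 11268 genes, threshold 0.05), after a test on simulated data. Spreads are SD over 4 libraries. Depth and fragments per gene were estimated from the most common FPKM times length among low genes with 1 transcript (GENCODE M21) and are approximate. Shared 31-base stretches were counted over GENCODE M21 transcripts. The neutrophil genes and all lists were chosen with earlier results of these data known. The rule for named genes took from each list those that passed, the 3 of highest mean and the 2 of lowest unadjusted p, of which the text gives a selection. Outside this rule are Cxcr2, Asprv1, Cxcl5, Tlr4, Csf3, Cebpe, Spi1, Clec4f, Timd4, Marco and genes listed at 0. Likeness was Pearson r with the mean z-score of the neutrophil genes, without unnamed gene models. Alternatives were another pseudocount, other filters and scalings, limma without trend, a replicate block, and leaving out libraries.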

Additional observations from a re-analysis of the deposited data

Results flagged for a closer look

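In 3 of 60 groups of 4 libraries examined, 1 library lay far from the other 3, by the gap to its nearest neighbour over the group's range. By chance about 1 group in 20 shows this. Ltf was at 0.164 FPKM in RIC_hEV 1, against 0.0395 to 0.0578 in the other RIC_hEV libraries. The summed monocyte genes were at 26.4 FPKM in ctr_hEV 2, below the other ctr_hEV libraries, which for ctr_hEV 4 depended on Nr4a1 (12.8 FPKM there). The summed T and NK cell genes were at 11.9 FPKM in RIC_hEV 2, above the other RIC_hEV libraries.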

How the results depend on the processing

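The number of genes passing in limma was 4 over all libraries, 2 with no filter on low values, 3 with the replicate block, and 1 to 175 with each library left out, the highest without ctr_hEV 4. The count of pathway list genes passing was 0 in each setting except without ctr_hEV 4 (range 0 to 4: Cd14, Chil3, Cxcl1 and Lcn2 passed there). That of cell type genes was 0 to 2 (Igkc without ctr_hEV 1, Igkc and Tat without ctr_hEV 4). With per-library median centring the log2 differences of Mpo, Elane and Ly6g turned to 0.089, 0.10 and 0.020, by construction, since centring shifts values at 0 too; that of Elane ran from -0.079 to 0.0058 with each library left out, turning without ctr_hEV 2. The other 7 neutrophil genes kept their direction in every setting run. Without ctr_hEV 1 and ctr_hEV 3 together, chosen after seeing the data, 10 of 10 were lower, as were 6320 of 11064 tested genes, and 5 genes passed. Csf3r, Ly6g and Elane then lay at only -0.11, -0.05 and -0.03. Libraries of the same replicate number were not clearly alike (correlations of deviations 0.052, 0.12, -0.009 and -0.227). Such values cannot exclude a pairing with a small effect. The block leaves the log2 differences unchanged by construction, since both groups hold the same replicate numbers, so it is no check of direction. Depth limits Mpo, Elane, Ly6g and Camp, which rest on few fragments. It also limits the ratios of Ngp and Ltf, which rest on an estimated 3.79 to 14.5 and 2.14 to 11.7 fragments in RIC_hEV.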
